A study of Bos taurus with 16 samples.

Results

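CYBRD1, TFRC, TF and LTF are 4 genes of iron handling, and their RNA was followed in the endometrium of superovulated cows and in the blastocysts flushed from them. The genes were taken as all probe sets of the Affymetrix bovine array whose single gene symbol was one of these names. This gave 6 of the 24016 probe sets that are not array controls, for 4 of the 9155 genes named: Bt.22055.1.S1_at (the brighter) and Bt.22055.2.S1_at for CYBRD1, Bt.19482.1.A1_at for TFRC, Bt.5336.1.A1_a_at for TF, and Bt.4802.1.S1_at (the brighter) and Bt.7780.1.S1_at for LTF. "Brighter" and "dimmer" refer to the mean endometrium signal and set no level of a probe set against another. A probe set was tested where its log2 signal was above 4 on at least 2 arrays of a tissue. In endometrium 5 of the 6 passed, all but TF, and in blastocysts only TFRC passed.

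Iron circulates bound to transferrin, the product of TF, and enters cells when loaded transferrin binds transferrin receptor 1, the product of TFRC. Iron must be in its ferrous form to cross a membrane, and CYBRD1 (duodenal cytochrome b) is a ferric reductase of the cell surface, best known from the gut. LTF encodes lactoferrin, an iron-binding relative of transferrin that is secreted by glandular epithelia and stored in neutrophil granules, where it withholds iron from bacteria. In many cells TFRC mRNA is stabilised by iron regulatory proteins when iron is scarce, whereas ferritin, the storage protein, is held back by them.

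The study drew on 49 cows, each brushed with a cytobrush 2 h before insemination (day 0) and again just before the uterus was flushed (day 7), all after superovulation. A brush free of polymorphonuclear cells (PMN, mostly neutrophils) put the cow in the healthy group (HE), and any such cells put it in the group with subclinical endometritis (SE). The labels name the status at the time of each brushing, and for blastocysts that of day 7. A day contrast within HE or SE thus compares pools of the same label and is not known to follow the same cows. RNA was pooled by status and day, giving 3 HE and 3 SE pools of day 0 endometrium, 2 HE and 3 SE pools of day 7 endometrium, and blastocysts of HE donors in 2 pools and of SE donors in 3, with 10 embryos in a pool. The labels give neither the breed and age of the cows nor how many cows entered a pool, nor whether one cow entered pools of both days, so p-values measure the spread between pools. Because neutrophils defined the status, the direction of a neutrophil gene between SE and HE is not independent evidence. In a brushing, fewer cells of a type and less RNA per cell cannot be told apart.

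Values are GCRMA signals on a log2 scale, where a difference of 1 is a doubling, and a call is an adjusted p under 0.05 in limma's moderated test. The endometrium arrays fell into 2 sets by day. Each correlated at 0.961 to 0.981 on average with the others of its day and at 0.823 to 0.847 with those of the other day. HE replicate 3 of day 0 had the highest mean correlation with day 7 of any day 0 array (0.847, against 0.823 to 0.831 for the other 5). SE replicate 2 of day 0 had the lowest with its own day (0.961, against 0.975 to 0.979). Epithelial markers were detected throughout: 12 of 13 were above 4 on every endometrium array, KRT8 on none. The mean log2 signal over the 13 ran from 10.33 to 10.79 on the day 0 arrays and from 9.33 to 9.67 on the day 7 arrays. On day 7, 6 of the 12 were called lower in HE and 9 in SE, against 23.2% and 24.1% of all kept probe sets, while 2, CDH1 (1.48 in HE and 0.62 in SE) and CLDN7 (1.05 and 0.99), were called higher in both statuses. The mean over the 13 stromal fibroblast markers on the array overlapped between the days, at 6.60 to 8.12 on day 0 and 6.63 to 8.07 on day 7, with POSTN and PDGFRB above 4 on none. Of these THY1 was called higher on day 7 in both statuses (1.03 and 0.78) and MGP lower in SE (-1.36). Of all kept probe sets, 21.8% in HE and 26.0% in SE were called higher. The 3'-to-5' difference of the GAPDH control, a sign of RNA quality, was 0.06 to 0.14 in HE on day 0 and 0.27 to 0.39 in HE on day 7, and 0.03 to 0.58 and 0.22 to 0.57 in SE. That of the eIF4E control was 3.70 to 3.85 in HE and 3.88 to 4.27 in SE on day 0. On day 7 it was 3.67 to 3.91 in HE and 4.05 to 4.52 in SE. The cyclophilin control overlapped between the statuses on either day. Of the 7 erythrocyte markers on the array GYPC alone was ever above 4, and HBB and HBA never were. GYPC was higher on day 7 by 0.82 in HE, not called, and by 0.84 in SE, called. Among the 7 kept macrophage markers, CD14 was called lower on day 7 in both statuses (-2.41 and -3.99) and CTSS in SE (-0.83). LAPTM5 was called higher in both (1.44 and 0.96) and AIF1 in HE (1.16). The part of these shifts in the results that follow was not tested.

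CYBRD1, the ferric reductase, was among the genes that rose most between insemination and flushing, in HE and SE endometrium alike. On day 0 the brighter probe set read 6.49, 5.91 and 9.36 in the HE pools and 6.43, 6.51 and 5.68 in the SE pools. On day 7 it read 13.19 and 13.37 in the HE pools and 13.58, 13.13 and 13.45 in the SE pools. Every day 7 pool lay above every day 0 pool, a separation that was not counted over all probe sets. HE replicate 3 of day 0 stood apart from the other 5 pools of its day. The day 7 means were 13.28 ± 0.13 (SD, n = 2) for healthy and 13.39 ± 0.23 (SD, n = 3) for SE pools, and those of day 0 were 7.26 ± 1.84 for HE and 6.21 ± 0.46 for SE, each over 3 pools. In order, SE and HE on day 7 were highest and did not differ beyond their spread, followed by HE and SE on day 0, which did not either.

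The rise in HE was 6.03 ± 0.79 log2 units (the value after ± is limma's standard error in all differences; 95% interval 4.26 to 7.80; limma adjusted p = 0.000197), or 65.2-fold. In SE it was 7.18 ± 0.71 (interval 5.59 to 8.76; limma adjusted p = 2.25e-05), or 145-fold. By size of change in either direction it was number 59 in HE and number 18 in SE of 13421 tested probe sets. These folds compare GCRMA signals, so their size depends on the background correction where the lower group is dim.

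The dimmer CYBRD1 probe set showed the same pattern at lower signals. It read 2.72, 2.40 and 5.34 in the HE pools of day 0 and 2.35, 2.43 and 2.63 in the SE pools. On day 7 it read 10.70 and 11.19 in HE and 10.88, 10.39 and 11.22 in SE. On day 0 it was therefore above 4 in HE replicate 3 alone, the pool in which the first probe set was also highest. It thus passed the limit through the day 7 pools, where it is high. The rise was 7.46 ± 0.70 in HE (limma adjusted p = 2.24e-05) and 8.36 ± 0.63 in SE (limma adjusted p = 3.61e-06), number 13 and number 7 by size. The probe sets share a gene, so they are not separate observations of it. Their correlation over the 11 endometrium arrays was 0.995.

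**Figure D1:**
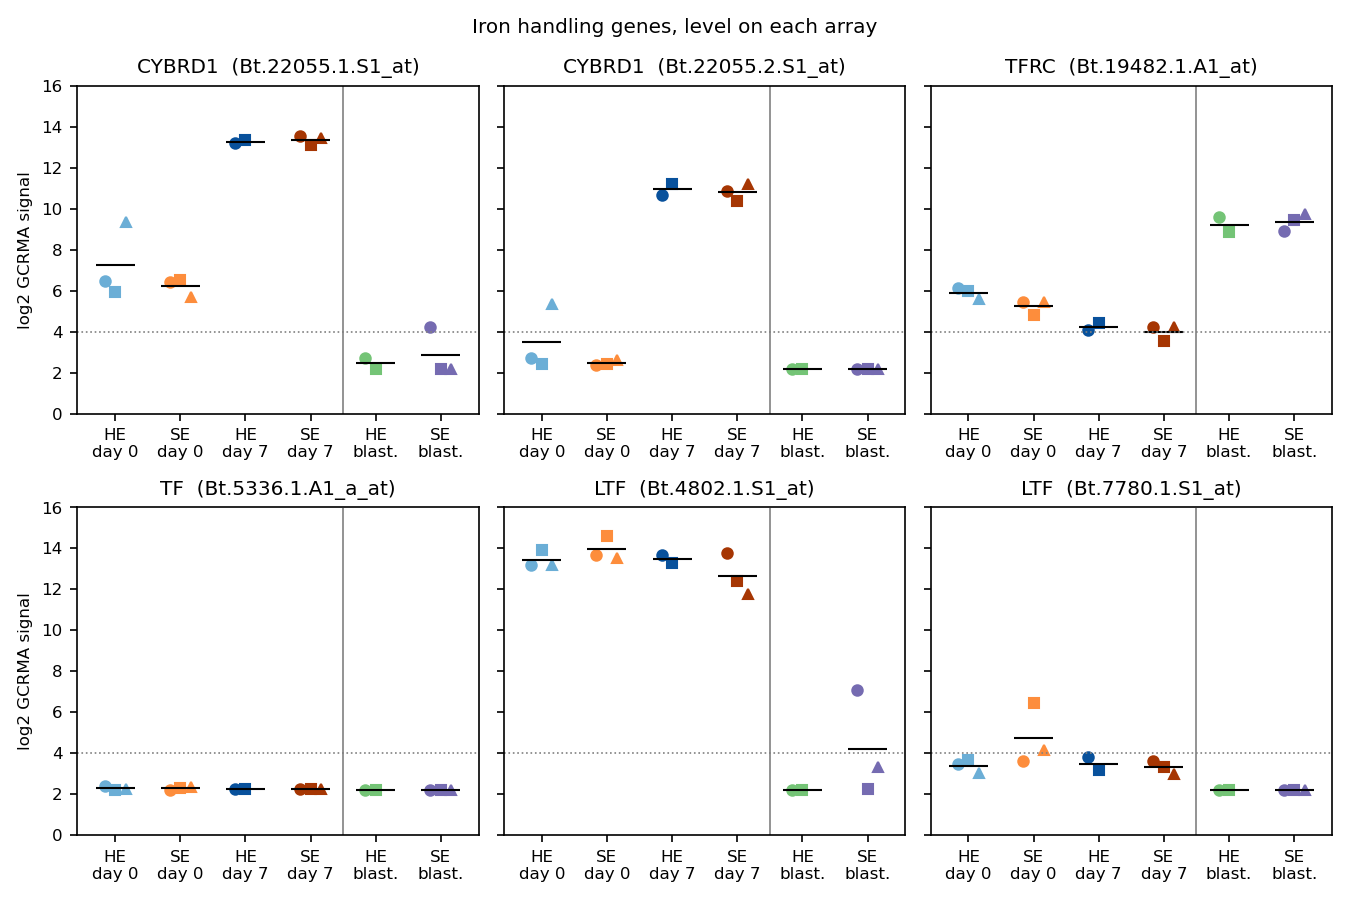
Log2 GCRMA signal of each of the 6 probe sets (vertical axis) on each array, by group, with circles, squares and triangles for replicates 1, 2 and 3 and a bar at the group mean. The dotted line marks the limit of 4, and the vertical line separates endometrium from blastocysts, which are not compared. CYBRD1 separates the days, with HE replicate 3 of day 0 at 9.36 between them, and TFRC runs the other way in endometrium.

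TFRC, the receptor that takes up transferrin-bound iron, fell over the same interval. It read 6.13, 5.99 and 5.60 in the HE pools of day 0 and 5.45, 4.79 and 5.45 in the SE pools. On day 7 it read 4.08 and 4.42 in HE and 4.22, 3.52 and 4.21 in SE. The days did not overlap within either status, and how many of all probe sets share that was not counted. The fall was -1.66 ± 0.29 log2 units in HE (95% interval -2.30 to -1.02; limma adjusted p = 0.0011), a 3.16-fold lower signal. In SE it was -1.25 ± 0.26 (interval -1.82 to -0.68; limma adjusted p = 0.00254), a 2.38-fold lower signal. Day 7 signals lay around the limit of 4, so the size of the fall is less certain than its direction. The order of the group means was HE day 0 (5.90 ± 0.28, SD, n = 3), SE day 0 (5.23 ± 0.38, n = 3), HE day 7 (4.25 ± 0.24, n = 2) and SE day 7 (3.98 ± 0.40, n = 3).

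TF, which encodes the carrier itself, stayed near the bottom of the scale. Its probe set lay between 2.22 and 2.40 on the 11 endometrium arrays, and 16.5% to 22.0% of an array's probe sets were at or below it. No pool of any group was above 4, and group means differed by at most 0.04 between days within a status. TF RNA was not detectable above the limit in the brushings with this probe set.

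LTF, which encodes lactoferrin, gave a strong signal on every brushing, and no change with day was called in HE. The brighter probe set read 13.19, 13.95 and 13.20 in the HE pools of day 0 and 13.68, 14.62 and 13.55 in the SE pools. On day 7 it read 13.67 and 13.27 in HE and 13.79, 12.39 and 11.75 in SE. SE replicates 2 and 3 of day 7 were the lowest of all 11 pools, while SE replicate 1 of that day lay within the day 0 range. The change from day 0 to day 7 was 0.02 ± 0.54 in HE (95% interval -1.18 to 1.23; limma adjusted p = 0.977).

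In SE the signal of this LTF probe set fell by 1.30 ± 0.48 log2 units (interval -2.38 to -0.23; limma adjusted p = 0.0459), with the groups overlapping. That call held in 1 of the 11 fits that each left out a pool, with adjusted p-values from 0.00329 to 0.165. The change was -0.97 without SE replicate 2 of day 0 (limma adjusted p = 0.145) and -0.86 without SE replicate 3 of day 7 (limma adjusted p = 0.165). The difference between the statuses in this change was -1.33 ± 0.73 (interval -2.95 to 0.29; unadjusted p = 0.0972, limma adjusted p = 1.00), so the change was not shown to differ between SE and HE.

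The other LTF probe set was dim and gave less information. It read 3.46, 3.64 and 3.02 in the HE pools of day 0, 3.60, 6.46 and 4.16 in the SE pools, 3.80 and 3.17 in HE on day 7 and 3.64, 3.32 and 2.98 in SE on day 7. It was above 4 in SE replicates 2 and 3 of day 0 alone, which is how it passed the limit. SE replicate 2 of day 0 was the highest pool on both LTF probe sets, and their correlation over 11 arrays was 0.703. That pool also had the highest mean of its day for the ciliated cell markers (8.89, against 6.14 to 7.49), the epithelial markers (10.79, against 10.33 to 10.53) and the macrophage markers (6.51, against 5.91 to 6.34), and the highest GAPDH 3'-to-5' difference (0.58, against 0.03 to 0.14). Their part in its LTF signal was not tested. Its day change in SE was -1.43 ± 0.60 (limma adjusted p = 0.0722) and in HE 0.11 ± 0.67 (limma adjusted p = 0.910).

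Of the 5 kept probe sets, 3 were called between the days in HE, where 45.0% of all kept probe sets were called, and 4 in SE, where 50.1% were. By direction, the 2 CYBRD1 probe sets were higher in both statuses, against 21.8% of all kept probe sets in HE and 26.0% in SE. TFRC was lower in both and LTF in SE, against 23.2% in HE and 24.1% in SE. With so many changes between the days, the calls alone do not set these genes apart. CYBRD1 ranked high by the size of its change among all probe sets. The genes were chosen with earlier results of these data known, so that place is description alone.

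**Figure D2:**
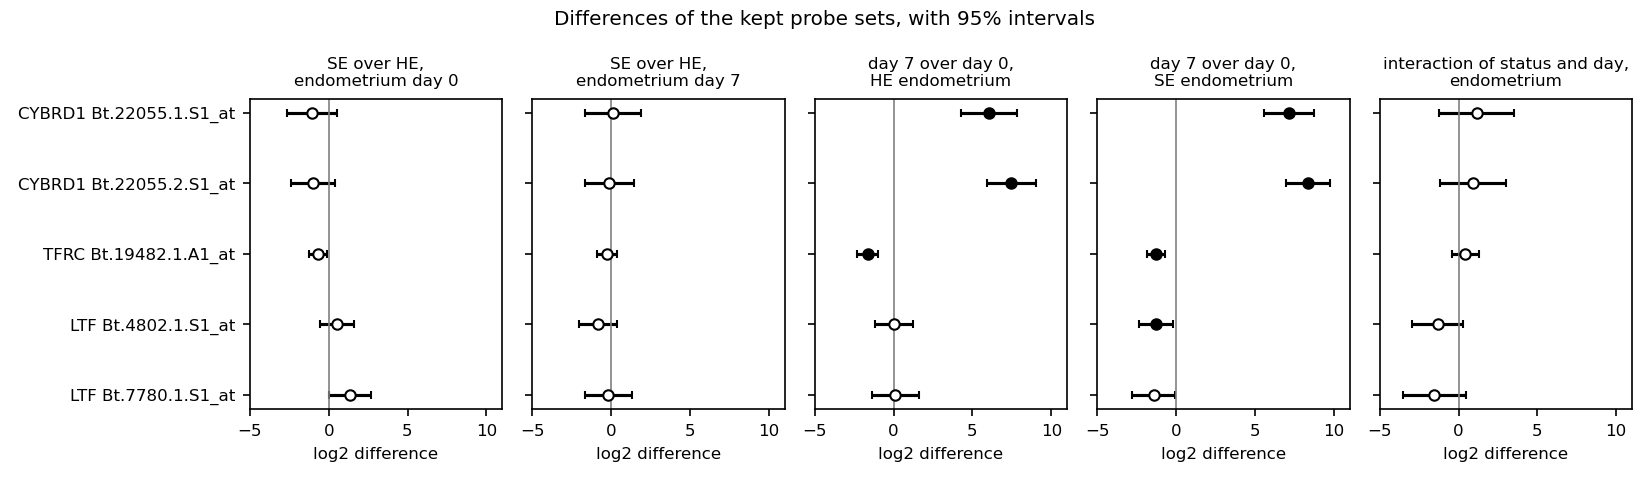
Log2 difference (horizontal axis) of the 5 kept probe sets in each endometrium contrast, with 95% intervals from limma and filled points where the adjusted p was under 0.05. The CYBRD1 points lie at 6.03 to 8.36 in both day contrasts, and no point is filled in either contrast of status or in the interaction.

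Between SE and HE none of the 5 probe sets was called on either day. On day 0, 0.0224% of all kept probe sets were called, 0.0149% higher and 0.00745% lower in SE (3 of 13421, with 1020 at an unadjusted p under 0.05). On day 7 the share was 0% (477 at an unadjusted p under 0.05), and for the interaction of status and day it was 0% (526). On day 7 and in the interaction no kept member probe set had an unadjusted p under 0.05.

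TFRC was lower in SE than in HE on day 0 by 0.67 log2 units as a value (-0.67 ± 0.26; 95% interval -1.24 to -0.10; unadjusted p = 0.0257, limma adjusted p = 0.610). Its 3 SE pools read 4.79 to 5.45 and the 3 HE pools 5.60 to 6.13. How many of all kept probe sets were parted in this way was not counted, so the separation adds nothing to the test. On day 7 the difference was -0.26 (interval -0.90 to 0.38), with overlapping pools, and the interaction was 0.41 (interval -0.45 to 1.27; limma adjusted p = 1.00).

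For CYBRD1 the status difference on day 0 rested on a single pool. It was -1.05 ± 0.71 (95% interval -2.63 to 0.54; limma adjusted p = 0.766) with all pools and 0.00 without HE replicate 3. On the dimmer probe set it was -1.01 with all pools and -0.09 without that replicate. On day 7 the differences were 0.10 (interval -1.67 to 1.87) and -0.12 (interval -1.68 to 1.45), intervals that leave room for more than a doubling in either direction.

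LTF was not called between the statuses. On day 0 the brighter probe set differed by 0.50 ± 0.48 (95% interval -0.57 to 1.58; limma adjusted p = 0.830) and the dimmer by 1.36 ± 0.60 (interval 0.02 to 2.71; unadjusted p = 0.0468, limma adjusted p = 0.656), which was 0.50 without SE replicate 2. The dimmer probe set was kept only through the SE pools of day 0, where it is high, so its difference there supports nothing by itself. On day 7 the brighter differed by -0.82 ± 0.54 (interval -2.03 to 0.38; unadjusted p = 0.158, limma adjusted p = 1.00). The signs on the 2 days were opposite, and neither passed the threshold.

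Neutrophils store lactoferrin, so their markers are given beside it. The array held 17 of the 24 listed, of which 10 were never above 4 in endometrium, among them MPO, ELANE, MMP9 and ITGAM. The log2 of their summed signal was 12.14, 11.13 and 10.49 in the HE pools of day 0 and 12.03, 12.91 and 14.54 in the SE pools. On day 7 it was 10.09 and 8.45 in HE and 8.81, 9.87 and 9.97 in SE. Every day 7 pool lay below every day 0 pool in this sum, to which the brightest markers contribute most. The mean log2 signal of the same 17 markers overlapped between the days, at 3.32 to 4.85 on day 0 and 3.18 to 3.71 on day 7. Of the 7 kept markers, S100A12 was called lower on day 7 in both statuses (-2.83 in HE and -4.28 in SE) and CHI3L1 in SE (-2.38), while ITGB2 was called higher in both (1.19 and 1.13). Of all kept probe sets, 23.2% in HE and 24.1% in SE were called lower, and 21.8% and 26.0% higher. The pool with the most neutrophil signal on both measures, SE replicate 3 of day 0, read 13.55 for LTF. The pool with the highest LTF, SE replicate 2 of day 0, was second of its day by the sum, but by the mean (3.99) it lay below 3 other pools of that day (4.23 to 4.85).

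**Figure D3:**
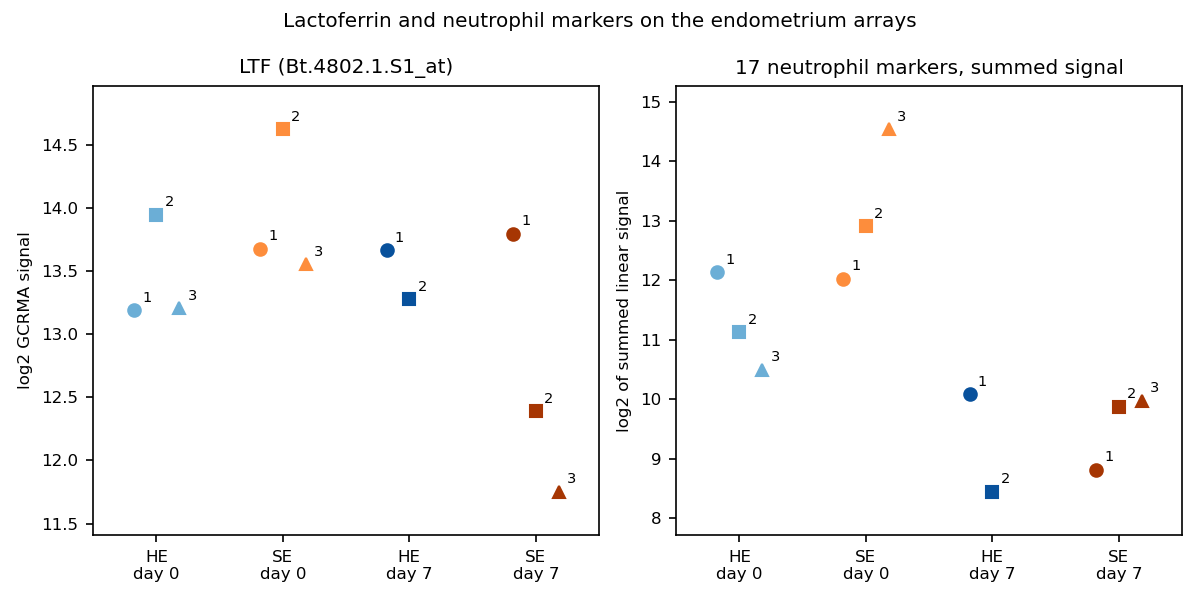
Left, log2 GCRMA signal of the brighter LTF probe set on each endometrium array, and right, log2 of the summed linear signal of 17 neutrophil markers, with replicate numbers beside the points. The vertical axes do not start at 0. The marker sum over both statuses spans 10.49 to 14.54 on day 0 and 8.45 to 10.09 on day 7. LTF spans 13.19 to 13.95 on day 0 and 13.27 to 13.67 on day 7 in HE, and 13.55 to 14.62 and 11.75 to 13.79 in SE.

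HE replicate 3 of day 0 held an intermediate CYBRD1 level. In a description added after the data were seen, its place between the days was measured over sets of probe sets called between the days. On a scale from the SE mean of day 0 (0%) to that of day 7 (100%), its CYBRD1 signal stood at 43.9% on the brighter probe set and at 34.3% on the dimmer. The other HE pools of day 0 stood between -4.11% and 3.98%. Over the 796 probe sets called higher on day 7 in SE by more than 2 log2 units, CYBRD1 included, the median position of replicate 3 was 7.23%, against 0.81% and 0.40% for the other HE pools. The spread of single probe sets was wide: the 5th to 95th percentiles over the 796 ran from -18.4% to 37.2% in that pool. There 31 of them (3.89%) stood at or beyond the place of the brighter CYBRD1 probe set, itself counted, against 9 and 5 in the other HE pools. Over the 738 called lower by as much the median position was 3.07%, against -1.96% and -3.23%. Over the 15 iron list genes described further on that were called higher in SE it was 11.6%, against 13.0% and 1.46%, and over the 12 called lower it was 16.4%, against -1.26% and -3.94%. TFRC in the same pool was 5.60, the lowest HE value of its day. On the same scale TFRC stood there at -29.2%, against -71.9% and -60.3% in the other HE pools. It thus lay beyond the SE mean of day 0, on the side away from day 7.

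**Figure D4:**
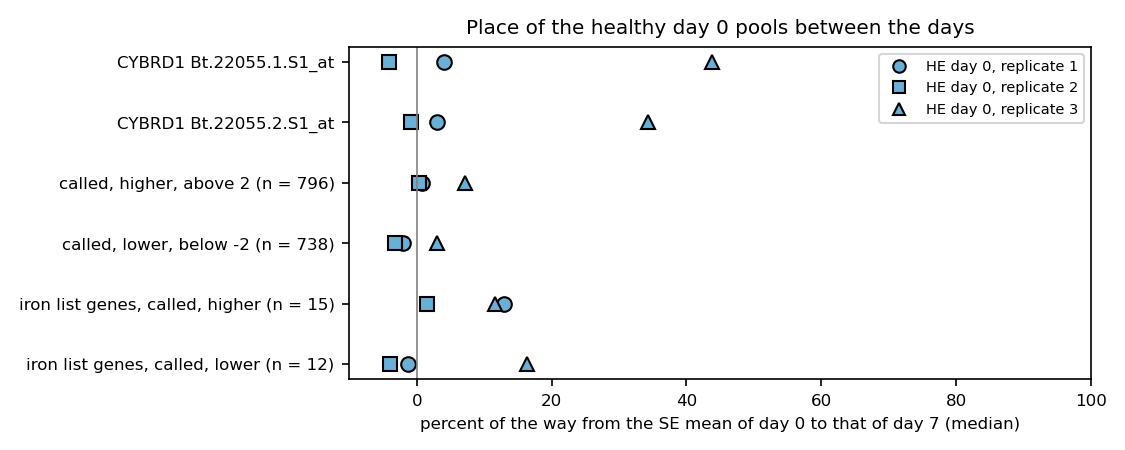
Position of the 3 HE pools of day 0 between the SE means of day 0 (0%) and day 7 (100%), in percent, for the CYBRD1 probe sets and as medians over sets of probe sets called between the days in SE. Replicate 3 (triangle) stands at 43.9% and 34.3% for CYBRD1 and at 7.23% and 3.07% over the large sets.

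The genes whose pattern over the 11 endometrium arrays was most like that of CYBRD1 were EDN3, an endothelin, with a Pearson correlation of 0.997, ENPP1, an ectonucleotide pyrophosphatase, with 0.990, and MRPS36 with 0.990, among 8641 kept probe sets of other genes. EDN3 read 2.63, 2.59 and 6.46 in the HE pools of day 0, so it too was raised in replicate 3. For TFRC they were S100PBP (0.972), ECD (0.969) and PRORP (0.968). For LTF they were B2M, the light chain of MHC class I (0.922), HSD17B11, a steroid dehydrogenase (0.904), and RTP4, an interferon-induced gene (0.898). The arrays lie in 2 sets by day, so for CYBRD1 and TFRC these correlations largely describe the step between the sets.

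Other genes of iron handling were followed as a list of 77, of which 50 were on the array and 43 were kept in endometrium. In HE 10 of the 43 were higher on day 7, 12 were lower and 21 were not called. In SE 15 were higher, 12 were lower and 16 were not called. The called share was 51.2% in HE and 62.8% in SE, against 45.0% and 50.1% of all kept probe sets, and the median change was -0.11 and -0.03, against -0.03 and 0.01 over all probe sets. A list gene counts once, by its brightest kept probe set, whereas the shares of all kept probe sets count every one. The shares are thus unlike measures, and their difference is not read as a trait of iron genes. The 10 genes higher in HE were all among the 15 higher in SE (66.7% of those), and 8 genes were lower in both (66.7% of either list). The list median thus lay near that of all probe sets, while single members changed strongly in opposite directions. Without HE replicate 2 of day 7, the HE contrast had 6 genes called lower in place of 12.

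Among the genes of uptake and reduction, 3 of 7 were higher and 1 lower in HE, and 4 higher and 2 lower in SE. Of all kept probe sets, 21.8% were called higher and 23.2% lower in HE, and 26.0% and 24.1% in SE. The same shares stand beside the counts of each role below. With so few genes to a role, the counts do not set a role apart. SCARA5, a receptor that takes up ferritin, rose by 5.46 ± 0.67 log2 units in HE and 5.26 ± 0.60 in SE, from group means of 2.40 and 2.22 on day 0 to 7.87 and 7.48 on day 7 (limma adjusted p = 0.000124 and 5.7e-05). It was above 4 on no day 0 array, so it was kept through the day 7 pools, where it is high. SLC39A8, a metal importer of the ZIP family, rose by 3.78 ± 0.28 and 4.95 ± 0.25 (limma adjusted p = 5.37e-06 and 3.79e-07), to 13.32 and 13.38. STEAP2, a metalloreductase like CYBRD1 in activity, rose by 4.004 ± 0.31 and 3.95 ± 0.28 (limma adjusted p = 6.85e-06 and 2.44e-06). SLC39A14, another ZIP importer of iron, fell in SE by 2.00 ± 0.25 (limma adjusted p = 9.56e-05) and in HE by 0.99 ± 0.27 (limma adjusted p = 0.0148), to group means of 2.76 and 2.69 on day 7, below the limit of 4. It was kept through the SE pools of day 0 (4.31 to 5.25), and the HE mean of that day, 3.67, was also below the limit. STEAP3, a ferrireductase that works beside the transferrin receptor in endosomes and is named here after its values were seen, fell in SE by 1.08 (limma adjusted p = 0.00752) and differed by -0.37 in HE (limma adjusted p = 0.346). The reductases thus did not move one way.

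Of the 3 kept extracellular carriers and oxidases, CP and ALB were called lower in HE and CP, ALB and HP in SE, against 23.2% and 24.1% of all kept probe sets. HP was above 4 on 2 day 0 arrays alone (4.25 and 4.82), through which it was kept. ALB has 3 kept probe sets, of which the brightest was lower in both statuses (-1.21 and -1.15), another changed by -0.01 and -0.27 without a call, and the last by -1.65, called in HE, and -0.56, not called in SE. CP, which encodes ceruloplasmin, the copper oxidase that loads iron onto transferrin, fell by 5.98 ± 0.85 in HE and 6.26 ± 0.76 in SE (limma adjusted p = 0.000326 and 8.96e-05). Its group means were 9.22 ± 0.76 (HE, SD, n = 3) and 9.74 ± 1.77 (SE, n = 3) on day 0 and 3.24 ± 0.07 (HE, n = 2) and 3.48 ± 0.72 (SE, n = 3) on day 7. CP therefore ran opposite to CYBRD1 and ended below the limit of 4 on average. Its only day 7 value above 4 was 4.25, in SE replicate 1, so it was kept through the day 0 pools, where it is high.

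Of the 5 storage and chaperone genes, 2 were lower in either status and none was higher. FTH1, the ferritin heavy chain, is named here after its values were seen: it fell by 1.07 ± 0.15 in HE and 1.02 ± 0.14 in SE (limma adjusted p = 0.000338 and 0.000171), from 14.01 and 14.03 to 12.94 and 13.01. Of the haem genes, 2 of 12 were higher and 2 lower in HE, and 4 higher and 2 lower in SE. HMOX1, haem oxygenase 1, which frees iron from haem, rose by 2.72 ± 0.31 and 2.70 ± 0.28 (limma adjusted p = 7.92e-05 and 2.93e-05), and UROD, of haem synthesis, fell by 1.42 ± 0.27 in HE and 0.95 ± 0.24 in SE (limma adjusted p = 0.00206 and 0.00874).

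Of the 10 mitochondrial import and iron-sulphur cluster genes, 3 were higher and 3 lower in HE, and 4 higher and 1 lower in SE. GLRX5, a glutaredoxin of cluster assembly, fell by 2.49 ± 0.17 in HE and 2.07 ± 0.15 in SE (limma adjusted p = 3.01e-06 and 3.12e-06). The 4 regulatory genes split, with 1 higher and 2 lower in HE and 2 each way in SE. Among them HIF1A, a hypoxia-inducible factor, fell by 1.38 ± 0.19 in HE and 1.24 ± 0.17 in SE (limma adjusted p = 0.000259 and 0.000197). Export and systemic control was measured by 2 genes, of which SMAD4 was called higher in both statuses. The control list was thin, with 3 of its 11 genes on the array.

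**Figure D5:**
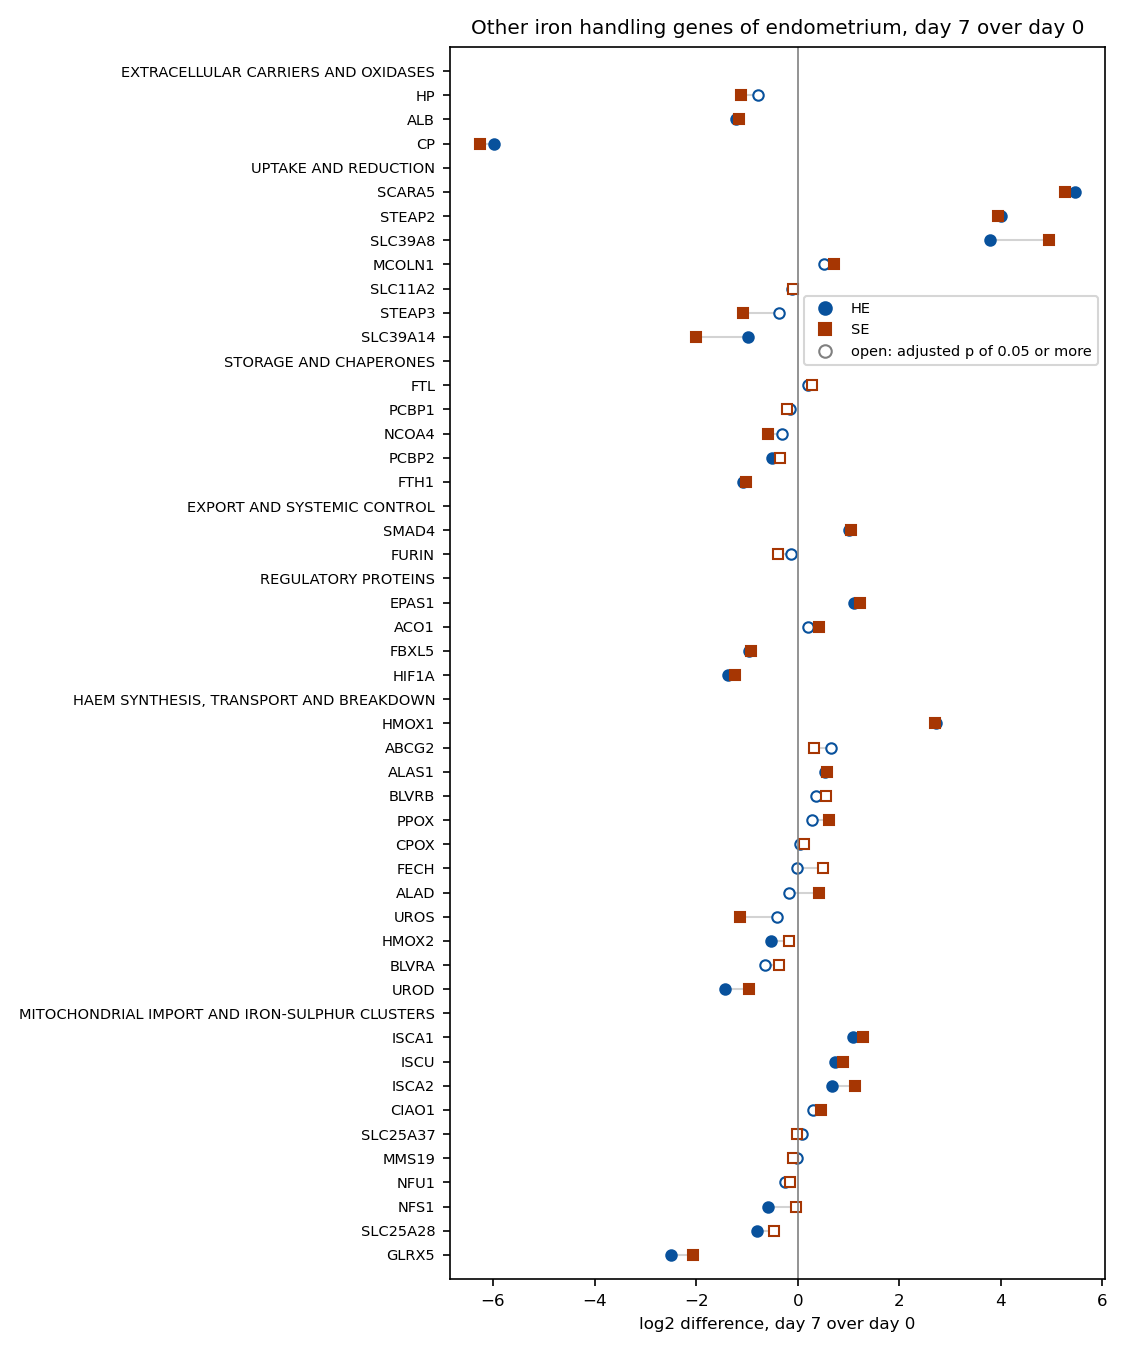
Log2 difference of day 7 over day 0 (horizontal axis) for the 43 kept genes of the iron lists, in HE (circles) and SE (squares), grouped by role, with open symbols where the limma adjusted p was 0.05 or more. SCARA5, STEAP2 and SLC39A8 lie at 3.78 to 5.46 and CP at -5.98 and -6.26, and 3 of the 43 genes have opposite signs in HE and SE.

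Between SE and HE none of the 43 genes was called by limma on either day or in the interaction. At an unadjusted p under 0.05 there were 6 on day 0, 0 on day 7 and 4 in the interaction. The smallest p-values on day 0 were those of SLC39A14, higher in SE as a value by 1.09 ± 0.25, and SLC39A8, at -1.11 ± 0.25 (limma adjusted p = 0.435 for either). SLC39A14 was kept through the SE pools of day 0, where it is high, so its difference there supports nothing by itself. On day 7 the smallest p-values were those of ALAD (0.33) and GLRX5 (0.33), and in the interaction SLC39A8 (1.17) and ALAD (0.58), with limma adjusted p = 1.00. The medians of the list were -0.08 on day 0 and 0.04 on day 7, against -0.06 and 0.00 over all probe sets.

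In blastocysts TFRC was the one member detected in every pool. It read 9.60 and 8.86 in the pools of HE donors and 8.93, 9.46 and 9.74 in those of SE donors, with overlapping groups. The difference was 0.15 ± 0.36 (95% interval -0.80 to 1.09; limma adjusted p = 0.892), where 0% of 11014 kept probe sets were called (1029 at an unadjusted p under 0.05). Blastocyst markers were detected: 8 of the 9 on the array were above 4 in all 5 pools, PAG11 in none.

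The other members sat at or near the floor of the blastocyst values, 2.20, which 30.9% to 31.7% of the probe sets of a pool shared. The dimmer probe sets of CYBRD1 and LTF read 2.20 in all 5 pools, and TF did so to within 0.01. Replicate 1 of the SE donors was the exception on the remaining probe sets. The brighter LTF probe set read 7.06 there, against 2.20 and 2.20 in the HE pools and 2.24 and 3.32 in the other SE pools. The brighter CYBRD1 probe set read 4.22 there, against 2.69 and 2.20 in HE and 2.20 and 2.20 in the other SE pools.

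Both probe sets were dropped by the limit, being above 4 in 1 pool. Without the limit the LTF difference was 2.01, with a limma adjusted p of 0.996. The 17 neutrophil markers on the array were never above 4 in any blastocyst pool. The mean of the 13 epithelial markers was highest in SE replicate 1 (8.47, against 7.70 to 8.06 in the other pools). There 12 of them were above 4, against 10 to 11 elsewhere. The mean of the 13 stromal fibroblast markers was lowest in that pool (5.69, against 5.76 to 5.94). Of 1339 probe sets above 10 on every endometrium array, 22 were below 2.5 in the other 4 blastocyst pools, and 1 of these was above 4 in SE replicate 1, AGR2, a secretory epithelial gene, at 5.21. The corresponding counts for the other pools were 0 or 1 of 15 to 16. These counts were chosen after the data were seen. The source of the LTF signal in that pool was not tested.

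Of the 50 other iron genes on the array, 38 were above 4 in all blastocyst pools and 9 in none, among them CP and STEAP2. None of the 40 kept was called between donors of SE and HE. The smallest p-values were those of SLC39A8 (0.85 ± 0.27, limma adjusted p = 0.476) and EPAS1 (1.99 ± 0.91, limma adjusted p = 0.585), and 1 gene had an unadjusted p under 0.05. The list median was 0.02, against 0.01 over all probe sets.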

How the data were processed

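The deposited values are GCRMA signals on a log2 scale, 1 column per array, for 24128 probe sets on 16 arrays. RNA was amplified in 2 rounds from 15 ng, per the labels' protocols, and GCRMA and limma are named in the submitters' processing notes without version. Whether 1 normalization spanned the tissues is unknown here, so no level was compared between them, nor between probe sets. Gene names came from the platform annotation: 13292 of the probe sets other than the 112 controls had 1 symbol, 86 had several and 10638 had none. The genome and gene sequences were not used here, and a planned search for promoter motifs was not run.

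limma 3.58.1 in R 4.3.3 was fitted to the group means of the 11 endometrium arrays and, apart, of the 5 blastocyst arrays, after keeping probe sets above 4 on at least 2 arrays (13421 and 11014). Tests were two-sided, with Benjamini-Hochberg adjustment over all kept probe sets. The script was checked on simulated data. Tables and plots used Python 3.11.15, pandas 2.3.3 and matplotlib 3.10.9. All member probe sets are named. Of the iron list, each gene stands by its brightest kept probe set. Named are at most 4 called genes a direction, and without calls the 2 of smallest p. SMAD4, FTH1, STEAP3, ALB and HP fall outside that rule. Patterns alike are the 3 highest Pearson correlations. The genes and lists were chosen with earlier results of these data known. The number of arrays limits the precision.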

Additional observations from a re-analysis of the deposited data

How the results depend on the processing

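All 7 calls among the 26 member differences were on the day contrasts, and those of CYBRD1 and TFRC held under every alternative and without any 1 pool, whereas that of the brighter LTF probe set in SE was lost with no filter (limma adjusted p = 0.119), with only the compared groups fitted (0.0952) and in 10 of 11 left-out fits. The dimmer LTF probe set in SE was called only without SE replicate 1 of day 0 (-2.002, limma adjusted p = 0.0185). Member calls ran from 2 to 3 in HE and 3 to 4 in SE, and the status, interaction and blastocyst contrasts kept 0. Leaving out a pool gave 6 to 13 iron genes lower in HE, an alternative added after seeing the data. No called difference changed sign. Uncalled ones that did were the brighter CYBRD1 probe set between statuses on day 7 with the gene mean (-0.00665) and, under the replicate block, that difference (-0.17), the dimmer LTF between statuses on day 7 (0.0364), the HE day change of the brighter (-0.23) and dimmer LTF probe set (-0.10), and TFRC in blastocysts (-0.0356). With a pool left out, the HE day change of LTF ran from -0.17 to 0.27 (brighter) and -0.20 to 0.42 (dimmer), the brighter CYBRD1 between statuses on day 0 from -1.72 to 0.00455, the dimmer CYBRD1 in the interaction from -0.0275 to 1.44 and on day 7 from -0.36 to 0.13, the dimmer LTF on day 7 from -0.49 to 0.14 and TFRC in blastocysts from -0.23 to 0.52. The cause was not tested. Same-numbered endometrium pools correlated in their deviations at -0.27 to 0.24 (2 of 15 pairs over 0.1) and blastocyst pools at 0.09 to 0.11, so the numbers were not taken as pairs; the replicate block left 3 member probe sets called in HE and 4 in SE.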
